A study of Mus musculus with 27 samples.

Results

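The 10 genes described here encode the main apolipoproteins secreted by liver (Apoa1, Apoa2, Apoa4, Apoa5, Apob, Apoc1, Apoc2, Apoc3 and Apoe) and Mttp, the microsomal triglyceride transfer protein that loads lipid onto the product of Apob. They were chosen by symbol from a table of 21823 protein-coding genes, and all 10 passed the filter on low values, as did 12952 genes in all. RNA was sequenced from the lobular zones of wild-type (WT) female C57BL/6 mouse livers (C57BL/6N in the methods of the study), cut out by laser microdissection from non-pregnant (NP) mice and from pregnant mice at 8 (dpc8) and 16 (dpc16) days post-coitum. Zone 1 is the tissue around the portal vein, zone 3 that around the central vein, and zone 2 the tissue in between. Each of the 9 combinations of stage and zone had 3 libraries, 27 in all, and the labels do not say whether the 3 zones with the same replicate number came from the same mouse. All groups were WT, the labels name no treatment, and NP mice were the only controls.

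Apolipoproteins are the protein coat of lipoproteins, the particles that carry triglyceride and cholesterol through plasma. In the hepatocyte, Mttp transfers lipid to the nascent Apob protein in the endoplasmic reticulum, and the resulting very-low-density lipoprotein leaves the cell through the secretory pathway. Apoc2 is the cofactor that lipoprotein lipase needs to hydrolyse the triglyceride of these particles, Apoc3 and Apoc1 restrain that clearance, Apoa5 favours it, and Apoe is the ligand by which remnants return to the liver. Apoa1 and Apoa2 are the main proteins of high-density lipoprotein, and Apoa4 is made by intestine and, in mice, by liver as well.

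Of the members, 7 lie in 2 gene clusters. On chromosome 7 of GRCm38/mm10, Apoc2 (chr7:19671579-19677941), Apoc4, Apoc1 (chr7:19689481-19692660) and Apoe (chr7:19696109-19699188) lie on the minus strand within 27610 bases. On chromosome 9, Apoa1 (chr9:46228580-46230466, plus strand), Apoc3 (chr9:46232933-46235636, minus strand), Apoa4 (chr9:46240696-46243459, plus strand) and Apoa5 (chr9:46268633-46271919, plus strand) lie within 43340 bases. The others stand apart, Apoa2 at chr1:171225054-171226379 and Apob at chr12:7977648-8016835 on the plus strand and Mttp at chr3:138089854-138144968 on the minus strand.

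The sequence immediately upstream of the annotated gene start is shown for the 3 members with the most contrasts past the test, from the RefSeq promoters of build GRCm38.p6, 5′ to 3′ on the strand of the gene. For Apoc2 (chr7:19677942-19678082, minus strand) it is the whole 141 bases that separate the gene from Apoc4. For Apoa4 (chr9:46240594-46240695, plus strand) it is 102 bases, and for Apoa1 (chr9:46228380-46228579, plus strand) 200 bases. Capitals mark a match of CAAAGNNCA, a form of the site bound by HNF4A, which was searched on both strands together with the TATA box (TATAAA) and the cyclic AMP response element (TGACGTCA).
Apoc2: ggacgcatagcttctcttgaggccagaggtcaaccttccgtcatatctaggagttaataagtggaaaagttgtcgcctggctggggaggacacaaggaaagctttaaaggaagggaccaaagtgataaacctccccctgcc
Apoa4: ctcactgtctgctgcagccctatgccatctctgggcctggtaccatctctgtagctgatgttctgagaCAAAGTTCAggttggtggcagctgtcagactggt
Apoa1: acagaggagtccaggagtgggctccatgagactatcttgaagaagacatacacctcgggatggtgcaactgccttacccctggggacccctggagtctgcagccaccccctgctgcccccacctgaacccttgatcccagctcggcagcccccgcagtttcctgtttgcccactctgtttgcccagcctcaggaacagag
Of 32544 RefSeq promoters, each a window of 300 bases and thus longer than the stretches printed, 6.38% held CAAAGNNCA, 13.6% held TATAAA and 1.8% held TGACGTCA. None of the 3 motifs occurred in the promoters of Apoc2 and Apoa1, which says only that these letters are absent from these windows.

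Of the 27 libraries, all labelled female, 6 stood apart, with Y-linked FPKM (sum over Ddx3y, Eif2s3y, Kdm5d and Uty) of 7.92 to 23.2, against 0 to 2.97 in the other 21. Some of the other 21 thus also read above 0, and libraries with Y-linked FPKM means below only the 6, whose sum was above 5. In NP these were replicate 1 of zone 1 and replicate 2 of zone 3, at dpc8 replicate 1 of zone 1 and replicate 2 of zone 2, and at dpc16 replicate 3 of both zone 2 and zone 3. In the same 6 libraries the summed FPKM of 10 connective tissue and smooth muscle genes was 955 to 4428, against 84.7 to 556 elsewhere, and the 10 members made up 3.21 to 7.09% of all FPKM, against 5.17 to 8.45%. The main results below are therefore also given from a fit without these libraries (21 libraries and 12270 genes tested, with 2 libraries left in 6 of the 9 groups), and their part in the results was not tested. Over the same 6 and 21 libraries, summed FPKM ran from 70.6 to 312 and from 116 to 689 for Kupffer cell and macrophage genes, from 65.4 to 146 and from 83.8 to 192 for sinusoidal endothelium, and from 25.0 to 158 and from 0.0884 to 139 for biliary epithelium, whose markers Krt7, Krt19 and Epcam were listed at 0 in 12, 9 and 11 libraries. All 9 hepatocyte markers found in the table were detected in every library (Alb, 22396 to 203747 FPKM). Of the enterocyte markers, Alpi was listed at 0 in 26, Cdx1 and Cdx2 in 23 each and Vil1 in 13 of the 27 libraries, while Fabp2, which hepatocytes also make, read 9.38 to 164 FPKM. In such bulk samples, fewer cells of a type and less RNA per cell cannot be told apart.

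The members spanned levels from 16.6 to 19399 FPKM (fragments per kilobase of transcript, scaled for the size of the library, a level per length that allows genes to be compared). Apoe was the most abundant, with a median of 13534 FPKM over the 27 libraries (3822 to 19012), followed by Apoa2 with 9833 (4096 to 19399) and Apoc1 with 8892 (2580 to 12272). Apoa1 (median 4384, 785 to 15066), Apoc3 (2852, 1123 to 5742) and Apob (1258, 515 to 2404) formed a middle tier. Apoa5 (median 657, 127 to 1287), Apoc2 (339, 117 to 2300.3), Mttp (118, 49.6 to 243) and Apoa4 (81.5, 16.6 to 1161) were the lowest. The least and the most variable members differed widely in range, since the highest library exceeded the lowest 69.9-fold for Apoa4, 19.6-fold for Apoc2 and 19.2-fold for Apoa1, but only 4.66-fold for Apob and 4.74-fold for Apoa2. For Apoa5, Apob, Apoc1, Apoc3, Apoe and Mttp, the lowest of all 27 values came from dpc16 zone 2 replicate 3, 1 of the 6 libraries with Y-linked FPKM.

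**Figure D1:**
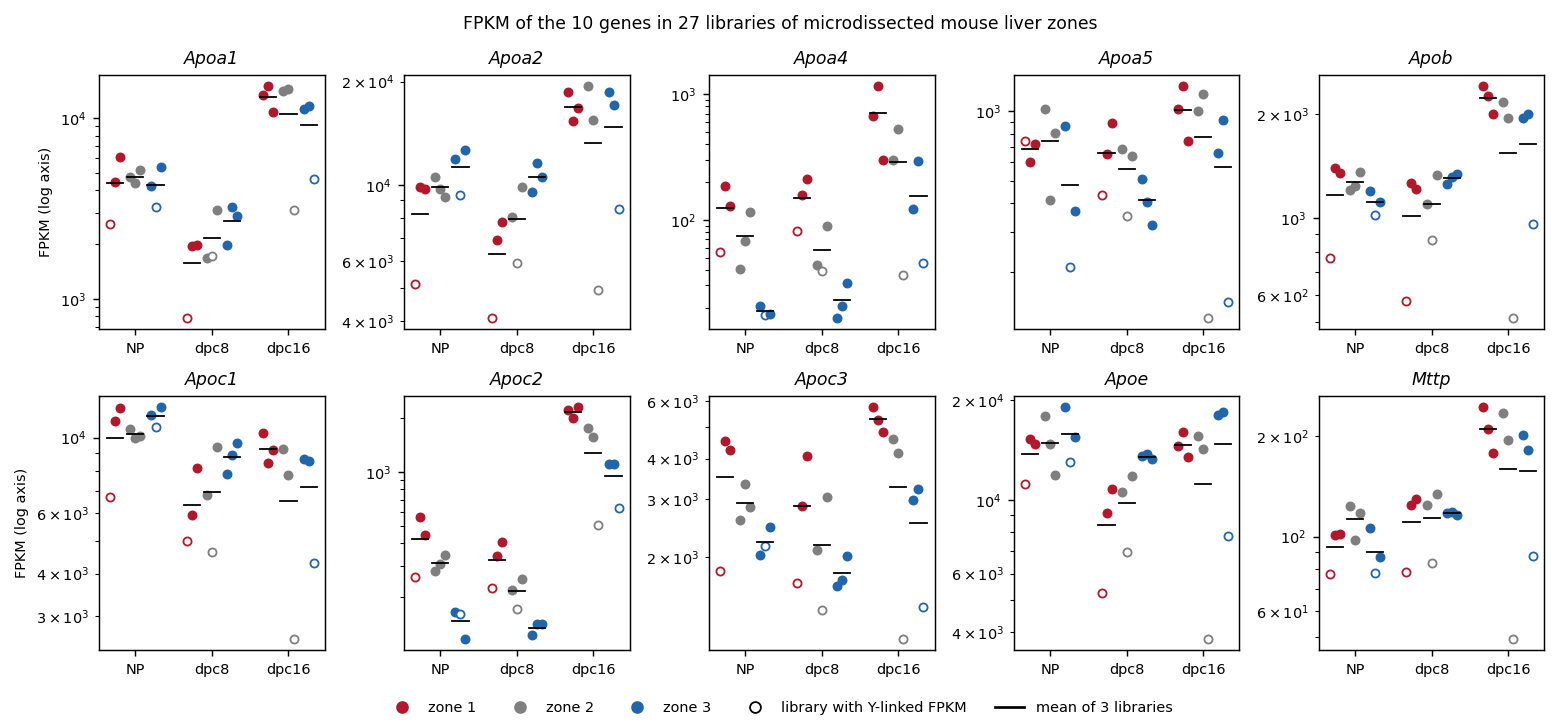
FPKM (log axis) of each of the 10 genes in the 27 libraries, by stage (NP, dpc8, dpc16) and zone (colour), with the mean of each group of 3 as a bar and open circles for the 6 libraries with Y-linked FPKM. All 9 dpc16 values of Apoc2 but those of 2 open circles lie at or above 1106 FPKM, while no NP or dpc8 value exceeds 560.4.

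Apoc2, the cofactor of lipoprotein lipase, rose most clearly of the members at dpc16. In NP liver it read 260.1, 560.4 and 446 FPKM in zone 1, 279, 308 and 346 in zone 2, and 165, 162 and 117 in zone 3. At dpc8 the values were 227, 339 and 409 in zone 1, 220.4, 173 and 254 in zone 2, and 123, 142 and 141 in zone 3. At dpc16 they were 2212, 1996 and 2300.3 in zone 1, 1762, 1560.2 and 506 in zone 2, and 1112, 1106 and 630.2 in zone 3. Every dpc16 library was thus above every NP and dpc8 library of its own zone, and zone 3 was below zone 1 without overlap at each stage. The lowest values of dpc16 zones 2 and 3 were those of the libraries with Y-linked FPKM.

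The group means of Apoc2 at dpc16 were 5.14-, 4.10- and 6.41-fold those of NP in zones 1, 2 and 3. On the log2(FPKM + 1) scale dpc16 exceeded NP by 2.43 in zone 1 (SE 0.37, adjusted p = 0.000575), by 1.85 in zone 2 (adjusted p = 0.00624) and by 2.64 in zone 3 (adjusted p = 0.00021), by the moderated test of limma fitted to all genes with Benjamini-Hochberg adjustment, two-sided. Against dpc8 the differences were 2.77, 2.39 and 2.75 (adjusted p = 0.000138, 0.000787 and 0.000146). Averaged over zones they were 2.30 against NP (SE 0.21, adjusted p = 1.27e-07) and 2.64 against dpc8 (adjusted p = 2.12e-08), and 2.51 and 2.79 without the 6 libraries. With only the groups compared in the fit, so that 3 libraries against 3 gave the spread, the zone 2 calls were lost (adjusted p = 0.272 against NP and 0.316 against dpc8). The order of Apoc2 levels ran from dpc16 zone 1 (2169 ± 157 FPKM, SD, n = 3) through dpc16 zone 2 (1276 ± 674) and dpc16 zone 3 (949 ± 276) to NP zone 1 (422 ± 152), and ended with NP zone 3 (148 ± 26.5) and dpc8 zone 3 (136 ± 10.6). Neighbours in that order did not differ beyond their spread between dpc16 zones 2 and 3, among NP zone 1, dpc8 zone 1 and NP zone 2, or between the last 2. Gm44805, a second gene annotated over nearly the whole of Apoc2 on the same strand, reached 23.1 FPKM at most (median 3.84), and how reads were split between the 2 models is uncertain.

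Apoa1, the main protein of high-density lipoprotein, rose between dpc8 and dpc16. The NP values were 2610.0, 4434 and 6106 FPKM in zone 1, 4724, 4384 and 5145 in zone 2, and 4207, 3215 and 5355 in zone 3. At dpc8 they were 785, 1956 and 1995 in zone 1, 1684, 1734 and 3107 in zone 2, and 1979.6, 3242 and 2885 in zone 3. At dpc16 they were 13501, 15066 and 10844 in zone 1, 14184, 14478 and 3106 in zone 2, and 11242, 11755 and 4625 in zone 3. The dpc8 libraries lay below all NP libraries of the same zone in zones 1 and 2, and the dpc16 libraries lay above all NP libraries in zone 1 and above all dpc8 libraries in zones 1 and 3.

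From dpc8 to dpc16, Apoa1 rose by 3.16 (log2, SE 0.51, adjusted p = 0.00117) in zone 1 and by 2.04 (adjusted p = 0.0438) in zone 2, with 1.68 (adjusted p = 0.111) in zone 3, where it passed without the 6 libraries (2.12, adjusted p = 4.62e-05). Leaving out any 1 of 5 of the 6 libraries of the zone 2 comparison lost that call, and leaving out dpc16 zone 2 replicate 3 kept it, with a difference of 2.78. The zone 2 call was kept in 7 of 10 other settings, with an adjusted p of up to 0.516. Averaged over zones, Apoa1 rose by 2.30 (SE 0.29, adjusted p = 1.6e-05) from dpc8 to dpc16 and by 1.18 (adjusted p = 0.00983) from NP to dpc16. The rise from NP was 0.67 to 1.46 in the 10 other settings. The dpc8 mean over zones differed from NP by -1.12 (95% interval -1.73 to -0.51), which did not pass (adjusted p = 0.256). Without the 6 libraries that difference was -1.10 and passed (adjusted p = 0.00145), as it did after division by each library's summed FPKM, a scaling chosen after seeing the data (-1.06, adjusted p = 0.0285). By group mean the order was dpc16 zones 1, 2 and 3 (13137 ± 2134, 10589 ± 6482 and 9207 ± 3977 FPKM), then the NP zones (4259 to 4751), then the dpc8 zones (1579 to 2702), and only the steps from dpc16 to NP and from NP to dpc8 exceeded the spread of both neighbours.

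Apoa2, the second protein of high-density lipoprotein, had a narrower range. Its 9 values ran from 5128 to 12634 FPKM (median 9750.5) in NP, from 4096 to 11587 (median 8047) at dpc8 and from 4932 to 19399 (median 16704) at dpc16. The stages overlapped, but the 7 dpc16 libraries without Y-linked FPKM, at 15385 or more, were above all NP and dpc8 libraries. Averaged over zones, Apoa2 rose from dpc8 to dpc16 by 0.81 (log2, SE 0.24, adjusted p = 0.0303), a call kept in 6 of 10 other settings. It was lost with replicate number as a block (adjusted p = 0.0891), with only the compared groups, as a share of summed FPKM (0.36, adjusted p = 0.0632) and with quantile normalization (0.16, adjusted p = 0.375), and when 1 library was left out in 9 of 18 cases. With the 6 left out, it was 0.97 (adjusted p = 3.41e-07). The difference between dpc16 and NP was 0.54 (adjusted p = 0.164), and 0.72 (adjusted p = 1.11e-05) without the 6 libraries.

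Apoa4, the member with the steepest gradient along the lobule, fell from zone 1 to zone 3 and rose at dpc16. In NP it read 55.1, 185 and 129 FPKM in zone 1, 40.6, 67.5 and 114 in zone 2, and 20.5, 17.4 and 17.9 in zone 3. At dpc8 the values were 81.5, 158 and 210.0 in zone 1, 43.5, 39.3 and 90.0 in zone 2, and 16.6, 20.6 and 31.5 in zone 3. At dpc16 they were 669, 1161 and 302 in zone 1, 297, 532 and 36.4 in zone 2, and 123, 292 and 45.6 in zone 3. Zone 1 was above zone 3 without overlap at each stage, and each dpc16 library of zones 1 and 3 was above all NP and dpc8 libraries of its zone, while zone 2 overlapped through 1 library at 36.4 FPKM.

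Averaged over stages, Apoa4 was 2.49 higher in zone 1 than in zone 3 (log2, SE 0.44, adjusted p = 0.000639). Within NP, dpc8 and dpc16 the differences were 2.50, 2.60 and 2.37, with an SE of 0.76 each, and none passed (adjusted p = 0.164, 0.102 and 0.186). At dpc16, where the replicate numbers met the criterion for pairing, the difference passed with the number as a block (adjusted p = 0.00123). That criterion cannot tell a shared mouse from the libraries with Y-linked FPKM, which share a number there. In the 21 other libraries the differences were 2.95, 2.98 and 1.70, of which those in NP and at dpc8 passed (adjusted p = 0.00894, 0.00342 and 0.126). Averaged over zones, dpc16 exceeded NP by 2.16 (adjusted p = 0.00209) and dpc8 by 2.08 (adjusted p = 0.00321), and these became 2.59 and 2.48 without the 6 libraries. The spread was large, with a group mean in dpc16 zone 1 of 711 ± 431 FPKM (SD, n = 3), and apart from dpc8 zone 2 against dpc8 zone 3 no neighbours in the order of the 9 group means differed beyond their spread.

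Apob, the structural protein of very-low-density lipoprotein, and Mttp, which lipidates it, passed the test in no contrast over the 27 libraries. Apob read 766 to 1391 FPKM in NP (median 1206), 578 to 1342 at dpc8 (median 1256) and 515 to 2404 at dpc16 (median 1992). Mttp read 77.2 to 123 FPKM in NP (median 101), 78.6 to 134 at dpc8 (median 118) and 49.6 to 243 at dpc16 (median 194). For both genes the 7 dpc16 libraries without Y-linked FPKM (Apob 1941 or more, Mttp 178 or more) were above all 18 NP and dpc8 libraries, and the other 2 dpc16 libraries were below the NP median. Averaged over zones, dpc16 differed from NP by 0.49 for Apob (95% interval -0.01 to 0.99, adjusted p = 0.216) and by 0.70 for Mttp (0.22 to 1.18, adjusted p = 0.0524). Without the 6 libraries both passed, with 0.72 for Apob (adjusted p = 4.27e-06) and 0.98 for Mttp (adjusted p = 2.27e-06). After division by the summed FPKM neither passed (0.10 and 0.31, adjusted p = 0.684 and 0.144). Within a library, Mttp was 7.26 to 10.2% of Apob in NP, 8.66 to 13.6% at dpc8 and 8.92 to 10.9% at dpc16, ranges that overlapped. Trmt10a overlaps the start of Mttp on the opposite strand and reached 9.25 FPKM, and whether the counting used strand is not given in the sources used here.

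Apoc1 and Apoe, neighbours of Apoc2 in the chromosome 7 cluster, did not pass in any contrast. Apoc1, which restrains lipoprotein clearance, read 6695 to 12272 FPKM in NP (median 10773), 4638 to 9616 at dpc8 (median 7845) and 2580 to 10281 at dpc16 (median 8532). Apoe, the remnant ligand, read 11162 to 19012 in NP (median 14760.0), 5249 to 13708 at dpc8 (median 10753) and 3822 to 18329 at dpc16 (median 14573). The dpc16 libraries of Apoc1 lay below the NP libraries in zones 2 and 3 and overlapped them in zone 1. Averaged over zones, Apoc1 differed from NP by -0.55 at dpc8 and by -0.55 at dpc16 (adjusted p = 0.703 and 0.127), and without the 6 libraries by -0.51 and -0.36 (adjusted p = 0.0224 and 0.015). Apoe differed from NP by -0.53 at dpc8 (adjusted p = 0.797) and by -0.24 at dpc16 (adjusted p = 0.644), and without the 6 libraries by -0.44 (adjusted p = 0.0446) and by 0.02 (adjusted p = 0.89).

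Apoc3 and Apoa5, which act on triglyceride clearance in opposite directions, also passed in no contrast. Apoc3 read 1814 to 4510.2 FPKM in NP (median 2599), 1373 to 4077 at dpc8 (median 2011) and 1123 to 5742 at dpc16 (median 4145). Apoa5 read 212 to 1022 FPKM in NP (median 722), 320.0 to 894 at dpc8 (median 509.8) and 127 to 1287 at dpc16 (median 921). At dpc16, Apoc3 in zone 1 (4829.9 to 5742) lay above zone 3 (1405 to 3225) without overlap. Averaged over stages, Apoc3 was 0.77 higher in zone 1 than in zone 3 (95% interval 0.21 to 1.33, adjusted p = 0.117), which passed with replicate number as a block (adjusted p = 0.021) and without the 6 libraries (0.89, adjusted p = 2.86e-05). That block also pairs libraries in NP and at dpc8, where the replicate numbers did not meet the criterion for pairing. Apoa5 differed by 0.85 (0.02 to 1.68, adjusted p = 0.311) between the same zones, and its dpc16 difference from NP was 0.10 (-0.73 to 0.93, adjusted p = 0.925). With the 6 left out, these Apoa5 differences were 0.50 (adjusted p = 0.212) and 0.57 (adjusted p = 0.0874), and that of Apoc3 between dpc16 and NP went from 0.24 (adjusted p = 0.663) to 0.44 (adjusted p = 0.00963).

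Zone 1 was set against zone 3 to ask which members follow the portal-to-central axis. Averaged over stages, 2 of 10 members passed, Apoa4 and Apoc2 (1.30, SE 0.21, adjusted p = 0.00028), against 5.59% of all genes tested. The median difference was 0.09 over the 10 members, 0.30 over the 9 hepatocyte markers, of which 1 passed, and 0.04 over all genes. Within NP, dpc8 and dpc16, limma called 0 of 10, against 1.34%, 1.61% and 1.55% of all genes, and 2, 2 and 3 members had an unadjusted p under 0.05, where 1039, 1581 and 1018 of the 12952 genes did. Apoc2 differed there by 1.45, 1.22 and 1.24 (SE 0.37 each, adjusted p = 0.054, 0.122 and 0.128). Zone 1 lay above zone 3 without overlap for Apoa4 and Apoc2 in NP (6.63% of all genes) and at dpc8 (12.8%), and for Apoa4, Apob, Apoc2 and Apoc3 at dpc16 (8.36%). For Apob the lowest dpc16 value of zone 1 was 1992.71 FPKM and the highest of zone 3 was 1992.35 FPKM. Zone 1 lay below zone 3 for Apoa2 and Apoe at dpc8 (10.5%). In the 21 other libraries, Apoa4, Apoc2 and Apoc3 passed in NP (1.87% of all genes) and at dpc8 (2.78%), Apoc2 and Apoc3 passed at dpc16 (2.82%), and the average over stages added Apoa2 (-0.31, adjusted p = 0.024) and Apoe (-0.32, adjusted p = 0.0375) on the side of zone 3 (8.47%). Between zones 1 and 2 and between zones 2 and 3, averaged over stages, 0 of 10 members passed (0.919% and 1.88% of all genes), with 2 members at an unadjusted p under 0.05 in each, where 820 and 1297 of all genes were. With replicate number as a block the first passed Apoa4 (adjusted p = 0.00437) and the second also passed Apoa4 (adjusted p = 0.00372). In these averages the block also pairs libraries in NP and at dpc8, where the replicate numbers did not meet the criterion for pairing. Without the 6 libraries Apoc2 passed between zones 1 and 2 (0.58, adjusted p = 0.00458, 1.49% of all genes), and Apoa4 (1.43), Apoc2 (0.84) and Apoc3 (0.46) passed between zones 2 and 3 (adjusted p = 0.016, 5.03e-05 and 0.0252, 3.14% of all genes).

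Whether the zonal difference itself changed with pregnancy was tested as a difference of differences. For zone 1 minus zone 3, limma called 0 of 10 members between dpc16 and NP and 0 of 10 between dpc8 and NP, against 0.054% and 0% of all genes (7 and 0 genes), and 0 members had an unadjusted p under 0.05 in either, where 409 and 306 of all genes did. The zonal difference of Apoc2 at dpc16 exceeded that in NP by -0.22 (95% interval -1.30 to 0.87) and that of Apoa4 by -0.13 (-2.37 to 2.11), intervals that include sizeable changes in either direction. Without the 6 libraries 0 of 10 members passed in either test, while the zonal difference of Apoa4 was 2.95 in NP and 1.70 at dpc16.

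**Figure D2:**
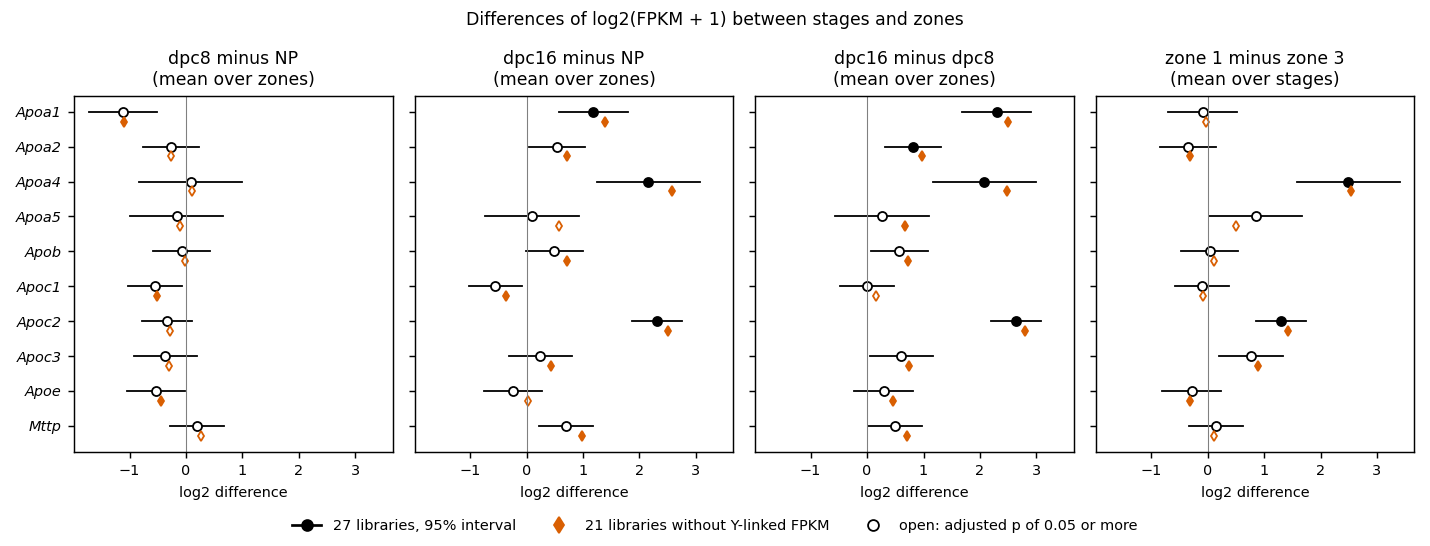
Differences of log2(FPKM + 1) between stages (mean over zones) and between zones 1 and 3 (mean over stages) for the 10 genes, as circles with 95% intervals from 27 libraries and as diamonds without the 6 libraries with Y-linked FPKM. Filled symbols passed at an adjusted p under 0.05, which holds for Apoa1, Apoa4 and Apoc2 between dpc16 and NP in both fits and for Apoa4 and Apoc2 between zones 1 and 3.

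Pregnancy was compared with the NP state in each zone, and the 2 pregnant stages with each other. These comparisons share groups, so their values are given side by side and no overlap is drawn from them. At dpc8, limma called 0 of 10 members against NP in zones 1, 2 and 3 (0.0309%, 0.00772% and 0.0154% of all genes), with 1, 1 and 0 members at an unadjusted p under 0.05, and 0 of 10 on average over zones (0.108%), with 3 at an unadjusted p under 0.05. Over all 12952 genes, 406, 656 and 355 reached that level in the zones and 792 on average. Without overlap between the groups, Apoa1 and Apoe were lower in zone 1 (2.92% of all genes), Apoa1, Apoc1, Apoc2 and Apoe in zone 2 (5.76%) and Apoc1 and Apoc3 in zone 3 (5.07%), and Apob and Mttp were higher in zone 3 (4.74%). With the 6 left out, Apoa1, Apoc1 and Apoe fell on average over zones (0.375% of all genes).

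At dpc16, Apoc2 was the 1 of 10 members called against NP in each of zones 1, 2 and 3 (1.37%, 2.66% and 1.32% of all genes), and Apoa1, Apoa4 and Apoc2 were called on average over zones (11.8%). The median difference of the 10 members was 0.52, against -0.01 over all genes tested and 0.75 over the 9 hepatocyte markers, of which 4 rose and 1 fell. In zone 1 the dpc16 values lay above the NP values for 8 members, all but Apoc1 and Apoe (9.42% of all genes), whereas in zone 2 they lay above for Apoc2 (7.77%) and below for Apoc1 (9.59%), and in zone 3 above for Apoa4 and Apoc2 (7.84%) and below for Apoc1 (8.87%). None of the 6 libraries was in dpc16 zone 1, where replicate 3 read 2.97 Y-linked FPKM, while dpc16 zones 2 and 3 each held 1 of the 6. In the 21 other libraries 5, 6 and 5 members rose in zones 1, 2 and 3 (3.1%, 4.78% and 3.87% of all genes), and on average over zones 7 rose (Apoa1, Apoa2, Apoa4, Apob, Apoc2, Apoc3 and Mttp) and Apoc1 fell (17.9%).

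Between dpc8 and dpc16, Apoa1 and Apoc2 rose in zones 1 and 2 (2.01% and 1.51% of all genes), Apoc2 in zone 3 (1.37%) and Apoa1, Apoa2, Apoa4 and Apoc2 on average over zones (11.1%). All members but Apoa5 lay higher without overlap in zone 1 (9.8%), Apoc2 in zone 2 (6.84%) and Apoa1, Apoa4 and Apoc2 in zone 3 (11.1%). Without the 6 libraries 6, 7 and 7 members rose in zones 1, 2 and 3 (4.36%, 4.27% and 4.25%), and 9, all but Apoc1, on average over zones (19.7%).

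The deposited libraries were not of equal total, and some of the weaker differences changed when values were divided by it. Summed FPKM ran from 499866 to 988500 (median 625686) and was highest in dpc16 zone 1 (876877 to 988500), where Alb alone made up 17.3 to 20.6% of it. The summed FPKM of the hepatocyte markers, most of it from Alb, was 197972 to 246539 in dpc16 zone 1, against 44225 to 115396 in NP zone 1. Division by each library's sum, chosen after seeing the data, shifted the median of all genes to -0.30 between dpc16 and NP and to -0.35 between dpc16 and dpc8. On that scale Apoc2 (1.91), Apoa4 (1.77) and Apoa1 (0.79) still rose between NP and dpc16, while Apoc1 (-0.95, adjusted p = 1.22e-05) and Apoe (-0.63, adjusted p = 0.00555) fell, and Apoa5 and Apoc3 turned from 0.10 and 0.24 to -0.30 and -0.15 without passing. Relative to the shifted median the differences were 2.21 for Apoc2, 2.07 for Apoa4, 1.09 for Apoa1, -0.65 for Apoc1 and -0.33 for Apoe. The part of the hepatocyte content or the scaling in these differences was not tested.

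Ratios within a library do not depend on its total, and the ratios given here were chosen after the values were seen. Apoc2 was 0.957 to 5.02% of Apoc1 in NP (median 3.09), 1.47 to 5.70% at dpc8 (median 3.24) and 12.8 to 25.0% at dpc16 (median 19.6). At dpc16 the 3 values of zone 2, 1 of them from a library with Y-linked FPKM, lay between 19.0 and 20.1%, above zone 3 (12.8 to 14.6%) and below zone 1 (21.5 to 25.0%). Apoc2 was likewise 8.32 to 66.7% of Apoc4, its neighbour across 141 bases, in NP, 11.5 to 57.2% at dpc8 and 96.7 to 284% at dpc16. Apoa1 was 34.5 to 62.9% of Apoa2 in NP, 19.2 to 31.6% at dpc8 and 54.3 to 97.9% at dpc16, and 22.1 to 43.2%, 14.6 to 26.3% and 59.5 to 102% of Apoe. For the ratios of Apoc2 to Apoc1 and to Apoc4 the dpc16 range did not overlap those of the other stages, and for the ratio of Apoa1 to Apoa2 the dpc8 range was below that of NP. Against Alb, whose own FPKM was high at dpc16, ranges pooled over zones were as follows. Apoc2 was 0.408 to 0.896% of Alb in NP, 0.446 to 0.811% at dpc8 and 0.807 to 1.52% at dpc16. Within each zone every dpc16 library was above every NP and dpc8 library, with 1.09 to 1.52% against at most 0.896% in zone 1, 0.868 to 1.21% against at most 0.67% in zone 2, and 0.807 to 1.15% against at most 0.735% in zone 3. Zones 1 and 3 overlapped in this ratio in NP (0.528 to 0.896 and 0.408 to 0.735%) and at dpc16, but not at dpc8 (0.559 to 0.811 and 0.446 to 0.545%). Apoa4 was 0.0616 to 0.296%, 0.0601 to 0.416% and 0.0829 to 0.71% of Alb in NP, at dpc8 and at dpc16, and dpc16 overlapped the other stages in each zone. Apoa1 at dpc16 was 6.63 to 9.21% of Alb in zone 1, 6.98 to 9.36% in zone 2 and 8.16 to 9.28% in zone 3. In NP it was 7.09 to 8.495%, 7.34 to 10.7% and 11.4 to 18.8%, so that dpc16 overlapped NP in zones 1 and 2 and lay below it in zone 3. At dpc8 it was 2.33 to 3.95%, 3.97 to 6.27% and 7.16 to 12.5%, so that dpc16 lay above dpc8 in zones 1 and 2 and overlapped it in zone 3. Apob was 1.60 to 5.35% of Alb in NP, 1.71 to 5.10% at dpc8 and 1.06 to 1.74% at dpc16, and in each zone every dpc16 library was below every NP and dpc8 library. Apoe was 17.0 to 84.9%, 15.1 to 52.7% and 7.15 to 14.5% of Alb at the 3 stages, and Apoc1 was 14.4 to 51.9%, 9.81 to 36.6% and 4.57 to 7.83%, both without overlap between dpc16 and the other stages. Mttp was 0.121 to 0.472%, 0.205 to 0.455% and 0.115 to 0.159% of Alb, with dpc16 below the other stages in zones 2 and 3 and overlapping NP in zone 1.

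**Figure D3:**
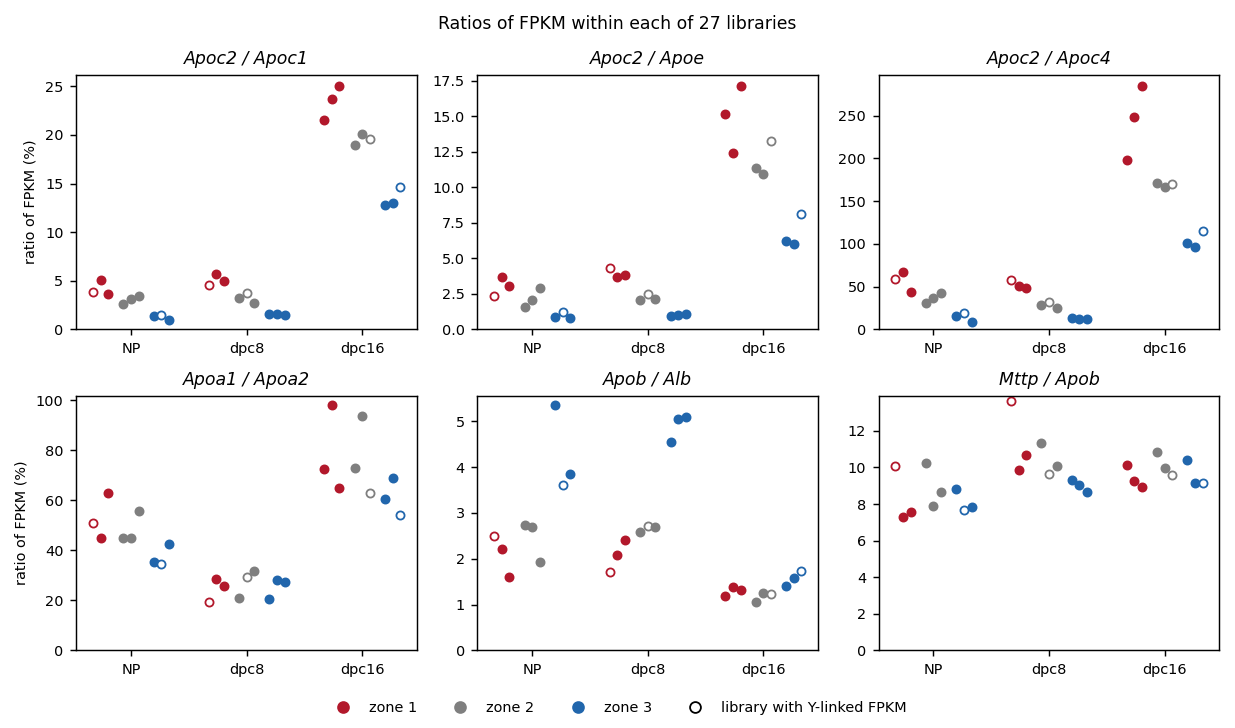
Ratios of FPKM (%) of 6 gene pairs within each of the 27 libraries, by stage and zone (colour), with open circles for the 6 libraries with Y-linked FPKM. The ratios of Apoc2 to Apoc1, Apoe and Apoc4 are higher in all 9 dpc16 libraries than in the 18 others, and the open circles at dpc16 lie beside the filled ones of their zone for Apoc2 to Apoc1 (19.6 against 19.0 and 20.1% in zone 2).

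The stage differences are set out by cluster. In the chromosome 7 cluster Apoc2 rose at dpc16, while its neighbours Apoc4 (-0.12, adjusted p = 0.84), Apoc1 and Apoe did not pass, averaged over zones, with 141, 8001 and 3448 bases between successive genes. In the chromosome 9 cluster Apoa1 and Apoa4 rose, while Apoc3, which lies between them, and Apoa5, 25173 bases beyond Apoa4, did not pass (0.24 and 0.10). In the fit without the 6 libraries Apoc3 also rose (0.44, adjusted p = 0.00963) and Apoc1 fell (-0.36, adjusted p = 0.015). Apoc4 is named for its position, after its values were seen. The difference between neighbouring genes was not tested.

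**Figure D4:**
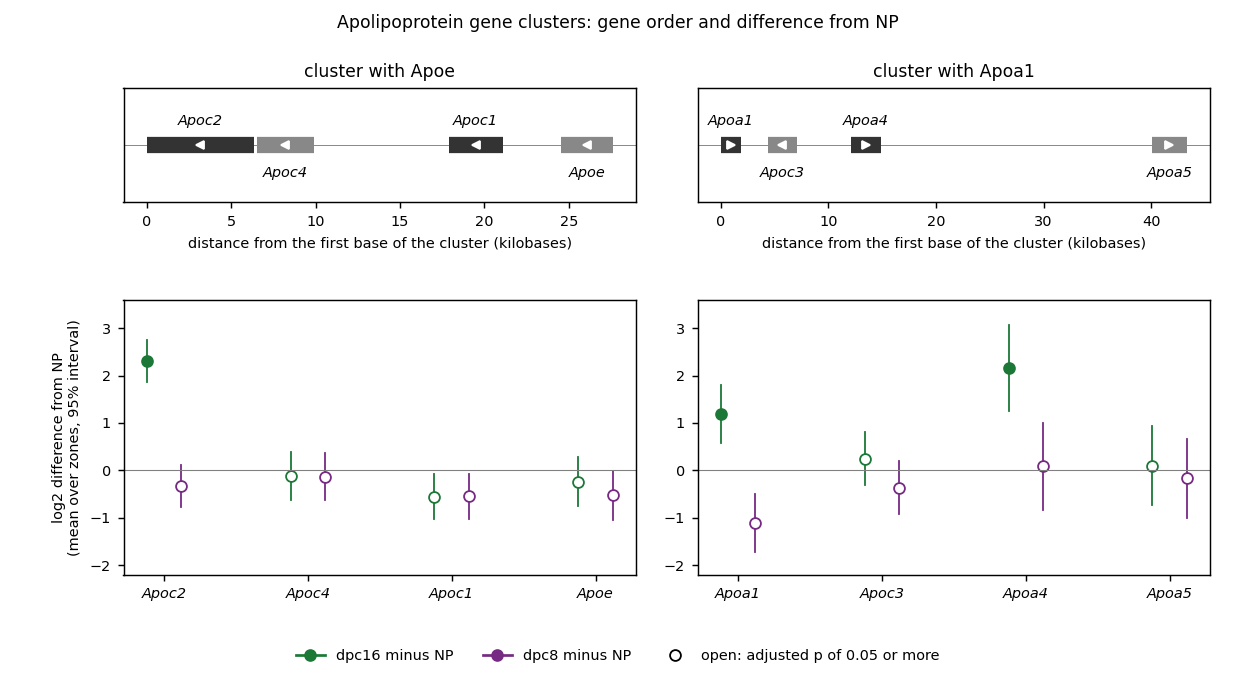
Order and direction (white arrowheads) of the genes of the chromosome 7 and chromosome 9 clusters, drawn to scale as distance in kilobases from the first base, above the log2 difference of dpc16 and of dpc8 from NP with 95% intervals. Filled symbols passed at an adjusted p under 0.05, as Apoc2, Apoa1 and Apoa4 did at dpc16 and no gene did at dpc8.

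The genes most like Apoc2 and Apoa1, the 2 members with the most contrasts past the test, were found by Pearson correlation of log2(FPKM + 1) over the 27 libraries, which share stages, zones and library composition. For Apoc2 these were Slc16a6 (r = 0.961), Alb (0.957), Bco1 (0.948), Rrbp1 (0.942) and Abhd2 (0.942). For Apoa1 they were Ahsg (0.943), Foxa3 (0.937), Enpp2 (0.93), Vnn3 (0.927) and Serpina1a (0.909). Between members, r over the 27 libraries was 0.936 for Apob and Mttp and -0.004 for Apoc1 and Apoc2. After subtracting group means, r was 0.67 to 0.969 for the pairs of members and 0.916 for Apoc1 and Apoc2. In the 21 libraries without Y-linked FPKM the same within-group r ran from -0.35 to 0.822 over the 45 pairs (median 0.298, against 0.891 in all 27) and was 0.387 for Apoc1 and Apoc2. As 6 of the 9 groups then held 2 libraries, these values are not on a like footing, and the part of the 6 libraries was not tested.

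Further genes in 4 lists put the members in context, the named genes being the up to 4 with the largest difference among those past the test. Of 8 other apolipoproteins, limma called 0 in each of the 20 contrasts, with 1 at an unadjusted p under 0.05 between dpc16 and NP on average over zones, where 3086 of the 12952 genes were, and 3 rose without the 6 libraries, against 17.9% of all genes passing. Of 16 genes of lipoprotein assembly and secretion, 3 rose and 1 fell between NP and dpc16 on average over zones (median -0.15, against -0.01 over all genes, of which 11.8% passed), and without the 6 libraries 4 rose and 1 fell, against 17.9% of all genes passing. Plin2, which coats lipid droplets, rose by 1.60 (SE 0.25, adjusted p = 0.000143), with mean levels of 242 FPKM in NP and 765 at dpc16. P4hb, the protein disulfide isomerase that forms the transfer complex with Mttp, rose by 0.61 (adjusted p = 0.00551), and Surf4, a cargo receptor for lipoprotein export, by 0.52 (adjusted p = 0.00956). Ces1d, a triglyceride hydrolase, fell by 1.08 (adjusted p = 0.0131), and in the average over stages it was 1.15 lower in zone 1 than in zone 3 (adjusted p = 0.0148). In that average 0 of the 16 genes were called higher and 3 lower in zone 1, against 5.59% of all genes, and the others are not named here.

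Of 16 genes of lipoprotein receptors and plasma remodelling, 1 rose and 3 fell between NP and dpc16 (median -0.33), against 11.8% of all genes, and without the 6 libraries 4 rose and 5 fell (median -0.36), against 17.9% of all genes passing. Lipc, hepatic lipase, fell by 2.76 (SE 0.20, adjusted p = 3.97e-09), from a mean of 137 to 20.4 FPKM, and fell in zone 1 (by 1.97), zone 2 (by 3.44) and zone 3 (by 2.89). Lipg, endothelial lipase, fell by 2.17 (adjusted p = 0.00412), and Lpl, lipoprotein lipase itself, by 0.70 (adjusted p = 0.0305). The gene that rose was Angptl4, an inhibitor of lipoprotein lipase (1.16, adjusted p = 0.0351). Vldlr, the very-low-density lipoprotein receptor, was lower in zone 1 than in zone 3 in NP (by 2.26 on the log2 scale, adjusted p = 0.0321) and at dpc8 (by 2.58, adjusted p = 0.00964). It was the 1 of 16 genes called in each, against 1.34% and 1.61% of all genes. Averaged over stages, 1 of the 16 was called higher and 2 lower in zone 1, against 5.59% of all genes.

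Of 11 transcriptional regulators, 0 rose and 4 fell between NP and dpc16 (median -0.15), against 11.8% of all genes. With the 6 left out, 2 rose and 4 fell, against 17.9% of all genes passing, and the median was 0.04. Srebf1, which drives lipogenic genes, fell by 2.33 (adjusted p = 5.35e-05), Ppargc1b by 1.08 (adjusted p = 0.0173), the bile acid receptor Nr1h4 by 0.79 (adjusted p = 0.00551) and Foxa2 by 0.77 (adjusted p = 0.0186). With replicate number as a block the dpc16 averages of Surf4, Lpl, Angptl4, Ppargc1b and Foxa2 no longer passed (adjusted p = 0.0526, 0.108, 0.0658, 0.0561 and 0.06). At dpc8, limma called 0 genes of the 4 lists against NP in zones 1, 2 and 3 and on average over zones, against 0.0309%, 0.00772%, 0.0154% and 0.108% of all genes. On average, 0, 1, 1 and 1 genes of the lists, in the order given, had an unadjusted p under 0.05, where 792 of all 12952 genes did.

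**Figure D5:**
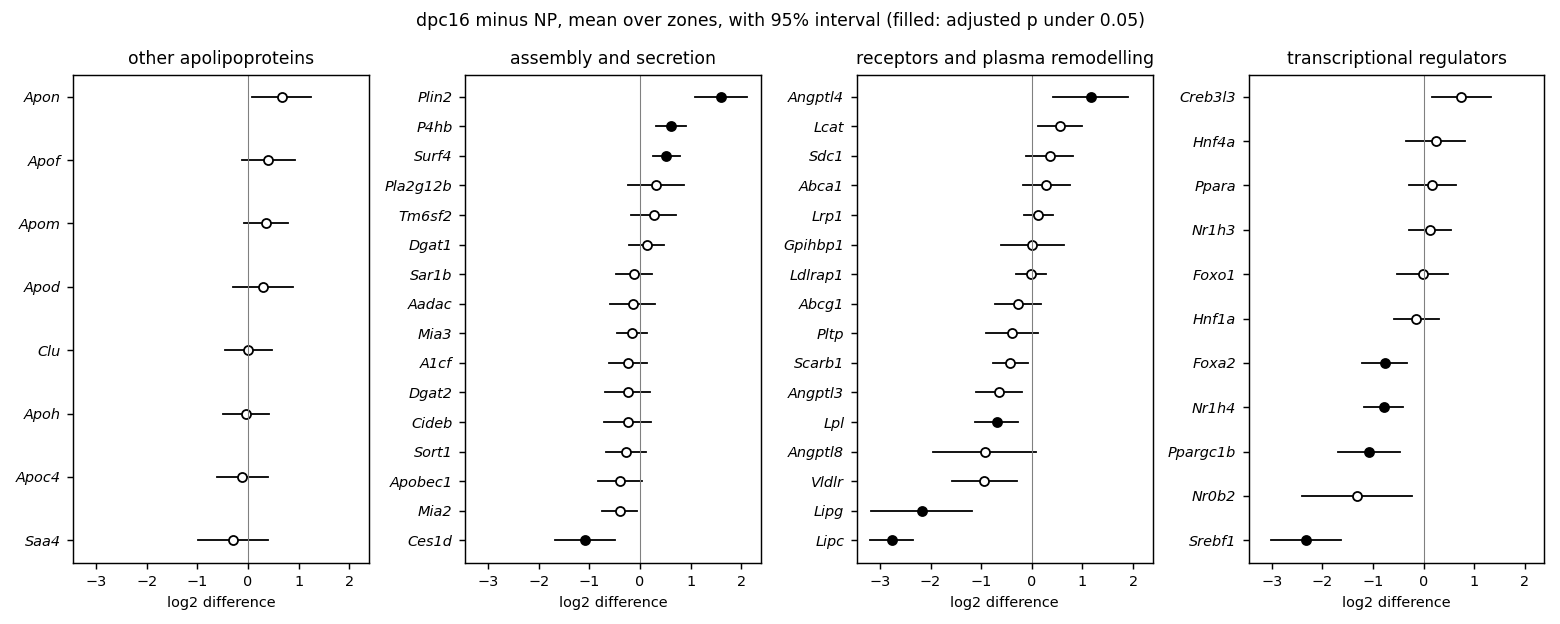
Difference of log2(FPKM + 1) between dpc16 and NP (mean over zones) with 95% intervals for 51 further genes in 4 lists. Filled circles passed at an adjusted p under 0.05, which 0 of 8 other apolipoproteins, 4 of 16 assembly genes, 4 of 16 receptor and remodelling genes and 4 of 11 regulators did.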

How the data were processed

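Zones were cut by laser microdissection and total RNA was sequenced single-end after ribosomal RNA depletion. Per the methods of the study, reads were trimmed, aligned to mm10 with HISAT2 2.1.0, kept where uniquely mapped, and quantified with Cuffdiff of Cufflinks 2.2.1 over GENCODE protein-coding genes. The authors deposited FPKM values and no count columns were used here. FPKM is relative to library size and gene length, and its sum differs between libraries. The methods of the study do not say how Cuffdiff was set to scale the libraries. Depth was estimated from the steps between low values as 7.45 to 33.0 M reads (median 16.25), with 91.06 to 97.22% of low values on steps. This estimate holds only if the values were scaled to mapped reads. As the values are not counts, no count test was used.

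FPKM values were analysed as log2(FPKM + 1), keeping genes at 1 FPKM or more in at least 3 libraries, with limma 3.58.1 in R 4.3.3 (a mean per group over 27 libraries, trended robust variance, two-sided tests, Benjamini-Hochberg adjustment within each of 20 contrasts over 12952 genes, threshold 0.05). The pseudocount understates changes of low genes. The labels do not say that replicates came from separate mice, so p-values measure the spread between these libraries. The script was tested on simulated data. GENCODE vM21, on this build, supplied positions and held 21609 of 21823 identifiers.

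The named genes were all 10 members, up to 4 genes past the test by largest difference per companion list and contrast, and the 5 genes most correlated with each of the 2 members with the most calls. In the list of receptors and plasma remodelling, 2 genes are not reported here. The members and lists were chosen with earlier results of these data known. Replicate numbers were checked for pairing by correlating deviations from group means between zones. All 9 same-numbered pairs at dpc16 exceeded 0.1 (0.26 to 0.86), against 4 of 9 in NP and 5 of 9 at dpc8, so the block was read as pairing at dpc16. Alternatives were another pseudocount, no filter, other scalings, fits with only the compared groups, the block, array weights, a connective tissue covariate, leaving out libraries, and, chosen after seeing the data, division by the summed FPKM of each library.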

Additional observations from a re-analysis of the deposited data

How the results depend on the processing

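Calls are counted here as pairs of a member and a contrast. Shares of all genes passing are given above for the main fit and the fit without the 6 libraries only. For the other settings, a gain of member calls therefore cannot be set against that over all genes. A pseudocount of 0.1 moved no count by over 1.5 times, nor did the absence of a filter or median-ratio scaling. For zone 1 against zone 3 at each stage the count was 0, and it became 3 with quantile normalization, 1 with only the compared groups, 5 with replicate number as a block (Apoa4 at each stage, and Apoc2 in NP and at dpc8 with adjusted p = 0.0208 and 0.0461), 6 with array weights, 8 with connective tissue as a covariate, 8 on removal of the 6 libraries that held Y-linked FPKM, 4 as a share of summed FPKM and 0 to 1 with 1 library left out. For dpc8 against NP in each zone it was 0, and 1 with the covariate. For dpc16 against NP in each zone it was 3, and 7 with quantile normalization, 13 with array weights, 10 with the covariate, 16 without the 6 libraries, 7 as a share, and 3 to 8 with 1 library left out (8 without dpc16 zone 2 replicate 3). For dpc16 against dpc8 it was 5, and 9, 15, 9 and 20 under quantile normalization, array weights, covariate and removal of the 6, 3 with only the compared groups, and 4 to 10 with 1 left out (10 without the same library). For averages over stages it was 2, and 4, 5, 6, 9, 9 and 4 under quantile normalization, block, array weights, covariate, removal of the 6 and share, and 2 to 5 with 1 left out. For averages over zones it was 7, and 11, 16, 14 and 20 under quantile normalization, array weights, covariate and removal of the 6, 6 with the block, and 6 to 14 with 1 left out. For the tests of zone by stage it was 0 in every setting. The cause of these shifts was not tested.

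The averages over zones of Apoc2, Apoa1 and Apoa4 at dpc16 against NP and dpc8 passed in 10 of 10 other settings and in 18 of 18 fits with 1 library left out. Between dpc8 and dpc16 in zone 1, Apoc3 differed by 0.97 and by -0.22 after quantile normalization, not passing either way (adjusted p = 0.735 in the latter). Depth could only be estimated from the FPKM values, and 3 libraries per group left intervals of about the size of the smaller differences.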
